A study of Mus musculus with 12 samples.

Results

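The 10 genes described here are those of the angiopoietin-TIE pathway, of the apelin pathway and of 3 further products of sprouting endothelium. They are Angpt1, Angpt2, Tek, Tie1, Ptprb, Apln, Aplnr, Esm1, Fscn1 and Plaur. They were taken by name, each through the probe set (the group of short oligonucleotides on the array that reports a transcript) with the highest mean signal over the 12 arrays among probe sets annotated to that gene alone. All 10 were measured, out of 18193 genes represented in this way.

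Endothelial cells (ECs) were sorted from whole lungs of NSG mice and their RNA was hybridised to Affymetrix expression arrays, with 3 biological replicates in each of 4 groups. The groups were ECs from healthy lungs (control) and from lungs taken 1 week, 2 weeks or 3 weeks after intravenous MDA231-LM2 cells (week 1, week 2, week 3). All mice, controls included, were of the NSG strain, which has no functional T, B or NK cells, and were females of matched age, 6 to 8 weeks old when the cells were given. The metastases came from 1 human breast cancer cell line selected for lung colonisation, and the sort took CD31+ cells that carried neither the blood cell antigens CD45 and CD11b, nor EpCAM of epithelium, nor CD140a and CD140b of mesenchymal cells, nor the GFP of the cancer cells.

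Angiopoietin 1, made mainly by mural and other mesenchymal cells, activates the receptor tyrosine kinase TIE2 on endothelium and keeps vessels quiescent. Angiopoietin 2 is made by ECs themselves, acts on the same receptor in a context-dependent way and is known from remodelling and sprouting vessels. Apelin is a secreted peptide of tip cells, the leading cells of a vessel sprout, and acts on a G protein-coupled receptor of neighbouring ECs.

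The arrays were comparable as a whole. Pairs of arrays correlated at 0.973 to 0.983 within groups and 0.961 to 0.981 between groups, and the median gene moved by at most 0.05 on the log2 scale in any comparison. The mean log2 signal of 10 pan-endothelial markers was 12.98 in control, 13.04 at week 1, 13.03 at week 2 and 13.03 at week 3, and 0 of the 10 passed the test in any comparison with control (at an unadjusted p below 0.05, 0 did so at week 1, 0 at week 2 and 2 at week 3). Pecam1, which encodes the CD31 of the sort, averaged 13.49 at week 3 and 13.45 in control. The 3' control probe set of Gapdh exceeded its 5' control probe set, a gap that widens as RNA degrades, by 0.31 ± 0.08 at week 3 and 0.52 ± 0.16 in control (SD, n = 3 each). Its part in the results below was not tested.

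Of the 10 genes, 3 rose and 1 fell at week 3 against control, where 2.38% of all genes rose, 2.63% fell and 5.01% passed the test in either direction. Fscn1, Apln and Angpt2 were 2.38-fold, 1.86-fold and 1.75-fold higher, and Angpt1 was 2.61-fold lower. No member passed at week 1, where 0.0495% of all genes did, or at week 2, where 0.242% did. Each comparison was tested with limma between 2 groups of 3 arrays, and a gene was called where its p, adjusted by the Benjamini-Hochberg method across 45037 probe sets, was below 0.05. At an unadjusted p below 0.05, 2 members passed at week 1, 3 at week 2 and 6 at week 3, and the shares of all genes were 8.98%, 10.5% and 21.4%. The 3 comparisons with control share the same control arrays, so their values are given side by side without a test of likeness.

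Between weeks, 4 of the 10 genes rose and 0 fell at week 3 against week 2, where 2.10% of all genes passed in either direction and 1.35% upward. Against week 1, 1 rose and 0 fell, where 0.841% of all genes passed. Week 2 and week 1 differed in 0 of the 10 genes and in 0% of all genes by limma's test, with 1 member, Plaur, at an unadjusted p below 0.05 (6.55% of all genes). At week 3 the arrays of 8 members did not overlap with those of control, where this held for 30.0% of all genes, and the same count was 4 at week 1 (16.1% of all genes) and 4 at week 2 (17.7%). Against week 2 the week 3 arrays of 8 members did not overlap (25.4% of all genes), 5 of them higher.

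**Figure D1:**
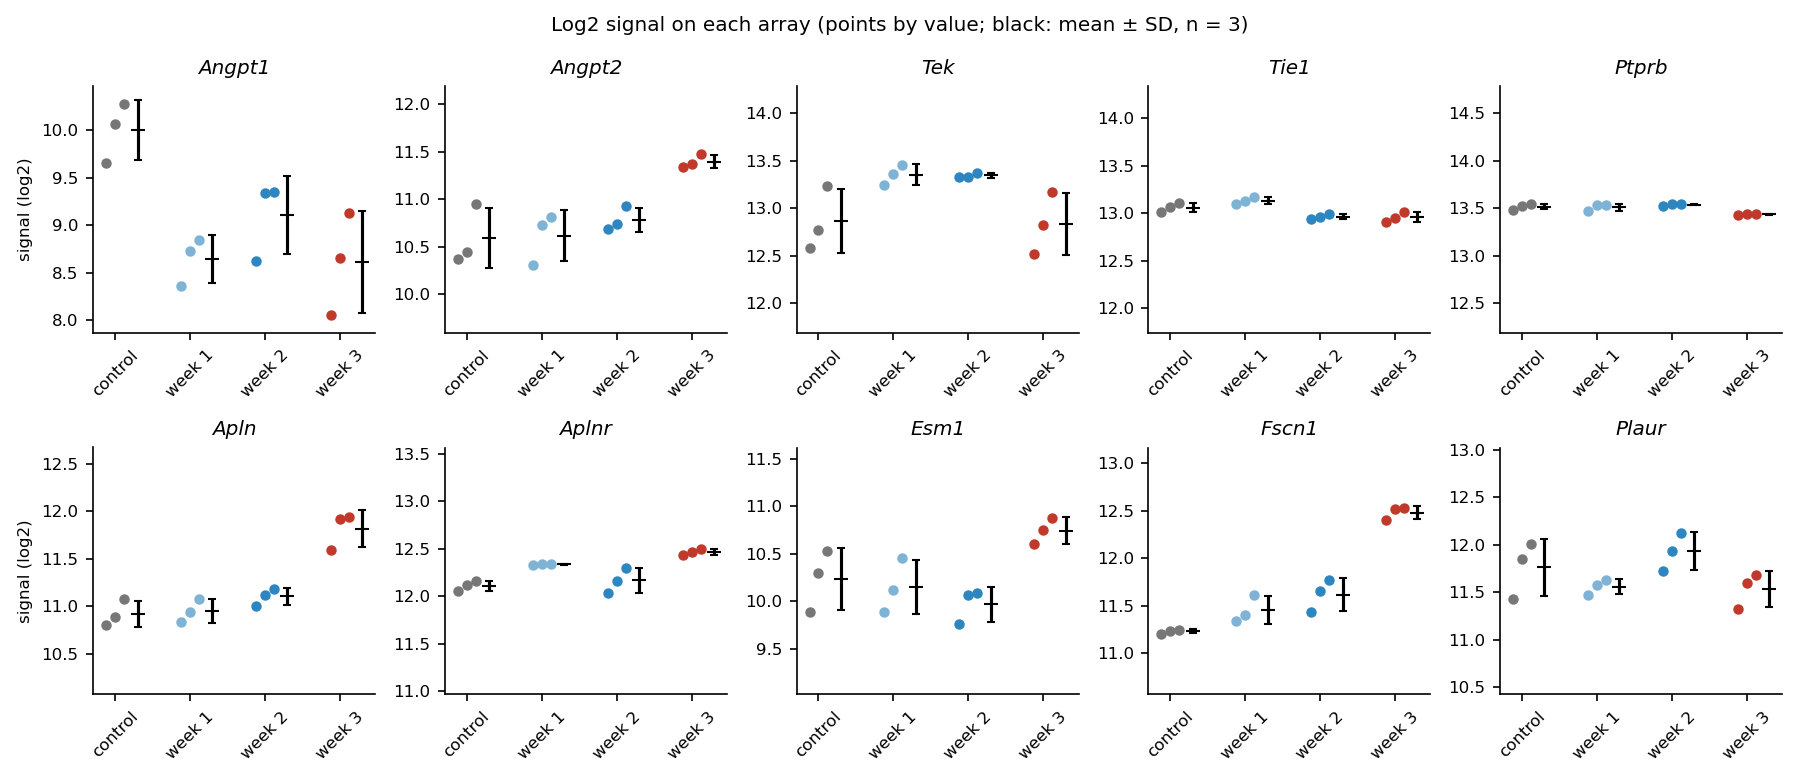
Log2 signal (vertical axis) of the 10 genes on each of the 12 arrays, in control and at weeks 1, 2 and 3, with points ordered by value within a group and black bars for mean ± SD (n = 3). All 10 panels span the same log2 range. Fscn1, Apln, Angpt2, Esm1 and Aplnr had their 3 week 3 arrays above all control arrays, and Angpt1 had all 9 arrays from lungs with metastases below all control arrays.

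Promoter windows of 300 bases, each around an annotated start, were in the RefSeq table used (GRCm38.p6) for 6 of the 10 genes, namely Tek, Tie1, Apln, Esm1, Fscn1 and Plaur. The windows of Apln (chrX:48034804-48035103, minus strand), Fscn1 (chr5:142960105-142960404, plus strand) and Esm1 (chr13:113209409-113209708, plus strand) are shown because these genes were higher on all 3 week 3 arrays than on any week 2 array. In these 3 the window runs from 250 bases before to 50 after the start of the gene in RefSeq. Capitals mark matches, on either strand, to a GC box (GGGCGG), the hypoxia element cores ACGTG and GCGTG, a forkhead site (GTAAACA), an AP-1 site (TGANTCA), an NF-kB type site (3 G, 5 bases of any kind, 2 C) and an ETS site (CCGGAA).
Apln: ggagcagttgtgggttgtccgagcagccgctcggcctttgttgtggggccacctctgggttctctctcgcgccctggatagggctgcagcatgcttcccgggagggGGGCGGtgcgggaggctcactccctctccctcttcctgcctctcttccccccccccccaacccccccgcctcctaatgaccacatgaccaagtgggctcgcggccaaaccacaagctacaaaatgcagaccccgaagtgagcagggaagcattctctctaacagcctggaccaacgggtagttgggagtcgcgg
Fscn1: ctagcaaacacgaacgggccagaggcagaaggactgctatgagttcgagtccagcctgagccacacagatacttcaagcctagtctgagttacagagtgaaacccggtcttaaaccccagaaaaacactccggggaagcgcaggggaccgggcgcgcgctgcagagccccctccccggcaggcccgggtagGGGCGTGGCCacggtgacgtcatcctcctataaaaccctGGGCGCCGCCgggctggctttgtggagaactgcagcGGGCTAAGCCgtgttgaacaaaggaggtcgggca
Esm1: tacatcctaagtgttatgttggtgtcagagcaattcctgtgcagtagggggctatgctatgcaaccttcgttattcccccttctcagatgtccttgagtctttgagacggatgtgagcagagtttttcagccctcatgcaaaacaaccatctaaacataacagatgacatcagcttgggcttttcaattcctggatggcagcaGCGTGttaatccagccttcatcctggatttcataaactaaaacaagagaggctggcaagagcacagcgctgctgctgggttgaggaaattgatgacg

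The Apln window held 1 GC box, at -144 from the start, which 35.7% of the 32851 windows in the table also hold. The Fscn1 window held 1 GCGTG, at -57, inside 1 of its 3 matches to the NF-kB type site. The Esm1 window held 1 GCGTG, at -47. GCGTG occurs in 32.4% and the NF-kB type site in 50.8% of all windows. ACGTG (19.6% of all windows), GTAAACA (3.65%), TGANTCA (7.81%) and CCGGAA (14.9%) had no match in these 3 windows. The E-box CANNTG, left in lower case, had 3 matches in Apln, 2 in Esm1 and 0 in Fscn1, and occurs in 72.3% of all windows. No motif searched occurred in all 3 windows, and a match is a description of these letters only.

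Angpt1, the TIE2 agonist, was lower on every array from lungs with metastases than on any control array. Its log2 signal was 10.27, 10.06 and 9.65 in control, 8.85, 8.35 and 8.73 at week 1, 9.34, 9.35 and 8.63 at week 2, and 9.13, 8.65 and 8.06 at week 3. The 3 weeks overlapped with each other, and week 3 had the widest spread (SD 0.54, against 0.32 in control). The log2 fold change against control was -1.35 at week 1 (standard error 0.20, limma adjusted p = 0.0642), -0.89 at week 2 (standard error 0.24, adjusted p = 0.262) and -1.38 at week 3 (standard error 0.28, adjusted p = 0.0441), so only the week 3 difference passed. The other probe set of Angpt1 had 8.05, 7.98 and 8.03 at week 3, against 10.27, 9.82 and 9.73 in control, which gave a fold change (log2) of -1.92 with an adjusted p of 0.0024. At weeks 1 and 2 this probe set had log2 fold changes of -1.56 and -1.23 with adjusted p = 0.0655 and 0.142. Week 3 and week 2 differed by -0.49 (adjusted p = 0.482) and week 3 and week 1 by -0.03 (adjusted p = 0.977). With any 1 array left out, the week 3 call on the main probe set held only without week 3 replicate 1 (adjusted p = 0.0338). It was lost without week 3 replicate 2 (0.103) or 3 (0.0827) and without control replicate 1 (0.128), 2 (0.132) or 3 (0.0703).

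Markers of cell types known to make Angpt1 were lower beside it. The mean log2 signal of 10 fibroblast markers lay between 10.51 and 10.65 on the week 3 arrays, against 11.27 to 11.33 on the control arrays, and that of 10 pericyte and smooth muscle markers between 9.05 and 9.18, against 9.56 to 9.72. By mean, 8 of the 10 fibroblast markers were lower and 2 were higher at week 3 than in control. For the pericyte and smooth muscle markers these counts were 9 and 1. At week 3, 5 of the 10 fibroblast markers fell and 0 rose by the test. Among them were Pdgfra (log2 fold change -2.25, adjusted p = 0.00462), which encodes the CD140a of the sort, and Tcf21 (-1.79, adjusted p = 0.00133). Dcn, Mfap4 and Fbln1 also fell and are named after their values were seen. Of the pericyte and smooth muscle markers 2 fell and 0 rose, Abcc9 (-1.68, adjusted p = 0.0157) and Myh11 (-0.88, adjusted p = 0.0419), and Pdgfrb, which encodes CD140b, had -0.91 (adjusted p = 0.0575). Both lists were lower at weeks 1 and 2 as well, with array means of 10.40 to 10.67 and 10.11 to 10.49 for fibroblast markers and of 8.75 to 8.94 and 8.72 to 8.87 for pericyte and smooth muscle markers. The 8 platelet markers, from cells that store angiopoietin 1, averaged 8.94 in control, 8.04 at week 1, 8.65 at week 2 and 8.93 at week 3. The file holds no detection calls, so no marker could be said to be absent. The part of these cells in the Angpt1 values was not tested, and in such bulk samples fewer cells of a type and less RNA per cell cannot be told apart.

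**Figure D2:**
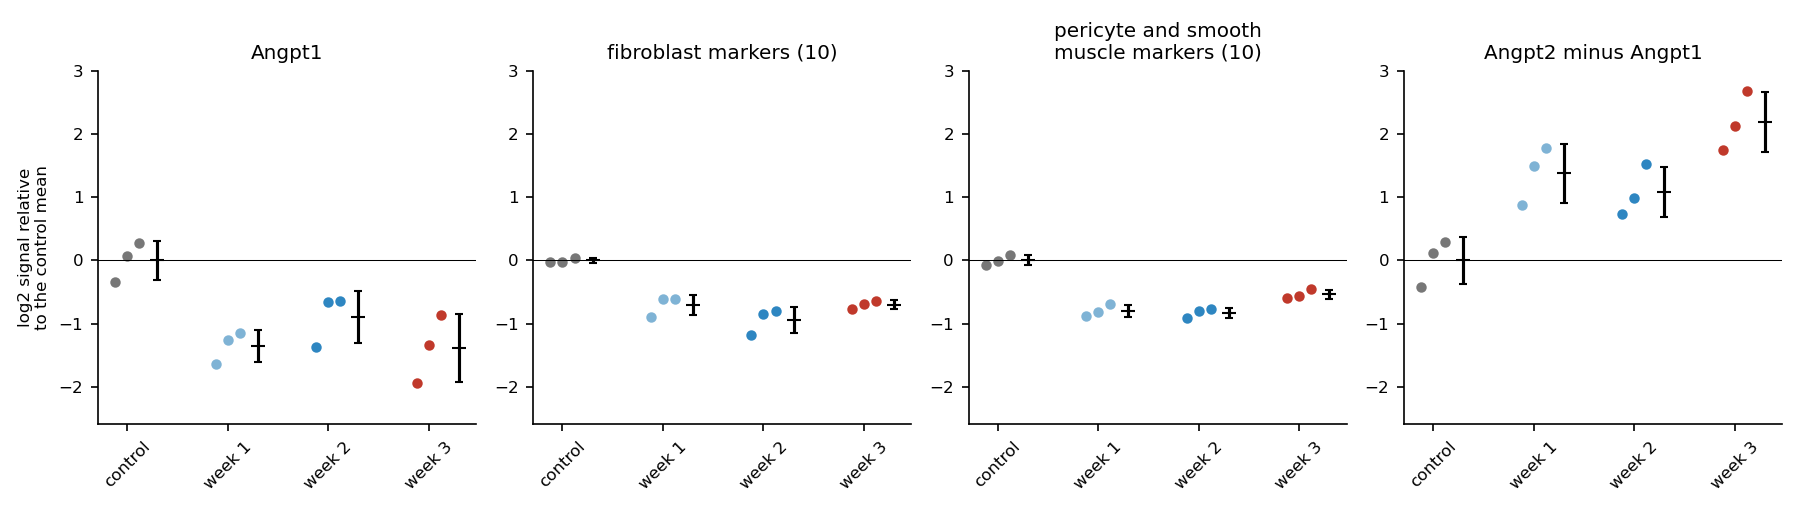
Log2 signal relative to the control mean (vertical axis) on each array in control and at weeks 1, 2 and 3, for Angpt1, for the means of 10 fibroblast and of 10 pericyte and smooth muscle markers, and for Angpt2 minus Angpt1, with black bars for mean ± SD (n = 3). Angpt1 and both marker means lay below every control array on all 9 arrays from lungs with metastases, and Angpt2 minus Angpt1 lay above every control array.

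Angpt2, the second TIE2 ligand, was higher on all 3 week 3 arrays than on any other array. Its log2 signal was 10.45, 10.95 and 10.37 in control, 10.31, 10.73 and 10.81 at week 1, 10.93, 10.68 and 10.74 at week 2, and 11.47, 11.37 and 11.34 at week 3. Control, week 1 and week 2 overlapped, with log2 fold changes against control of 0.03 at week 1 and 0.20 at week 2 (adjusted p = 0.975 and 0.743). At week 3 the log2 fold change was 0.81 against control (standard error 0.17, adjusted p = 0.0453), 0.61 against week 2 (standard error 0.11, adjusted p = 0.0451) and 0.78 against week 1 (standard error 0.16, adjusted p = 0.0962). The second probe set of Angpt2 had 8.69, 8.09 and 8.42 at week 3, against 8.17, 8.24 and 7.66 in control, groups that overlapped (log2 fold change 0.37, adjusted p = 0.370). The week 3 call against control held without control replicate 2 (adjusted p = 0.0264) and was lost when any other array was left out (adjusted p 0.105 to 0.132), and the call against week 2 was lost without any 1 array (0.0900 to 0.137).

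The balance of the 2 ligands was followed on each array as Angpt2 minus Angpt1, set to the control mean because the offset between probe sets has no meaning. It was 1.38 ± 0.47 at week 1, 1.09 ± 0.40 at week 2 and 2.19 ± 0.47 at week 3, with an SD of 0.37 among the control arrays (log2, n = 3 each). The week 3 arrays had 1.75, 2.13 and 2.69, and the highest control array had 0.29. At weeks 1 and 2 the difference came with Angpt2 means within 0.20 of control. Through the other Angpt1 probe set, added after the data were seen, the week 3 value was 2.73 ± 0.06. The balance was not computed through the second Angpt2 probe set, whose week 3 log2 fold change was smaller (0.37, against 0.81 on the brightest). The part of the lower fibroblast and pericyte markers in the balance was not tested. These values are a description without a test.

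The receptors of the pathway showed no call in any comparison. Tek, which encodes TIE2, had a log2 signal of 12.77, 12.58 and 13.23 in control, 13.37, 13.24 and 13.46 at week 1, 13.33, 13.33 and 13.38 at week 2, and 13.17, 12.82 and 12.52 at week 3. All week 1 and week 2 arrays lay above all control arrays and above all week 3 arrays, although the highest control array lay close to the lowest of them. The log2 fold change was 0.49 at week 1 (95% interval 0.07 to 0.92, adjusted p = 0.462) and 0.48 at week 2 (0.08 to 0.88, adjusted p = 0.382), and at week 3 it was -0.03 against control (-0.55 to 0.49, adjusted p = 0.962) and -0.51 against week 2 (-0.91 to -0.11, adjusted p = 0.189). The Tek values spread most at week 3 (SD 0.33) and in control (SD 0.33), and least at week 2 (SD 0.02).

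Tie1, the receptor that pairs with TIE2 and itself binds angiopoietins weakly, kept within 0.26 on the log2 scale over all 12 arrays. Its means were 13.06 in control, 13.13 at week 1, 12.97 at week 2 and 12.96 at week 3. The week 3 log2 fold change was -0.10 (95% interval -0.33 to 0.13, adjusted p = 0.616), so a change in array signal larger than 0.33 in either direction lay outside the interval. The highest value in the data was 14.11, and whether signals this bright follow RNA amounts in full was not tested. The week 2 and week 3 arrays did not overlap with control, by small margins.

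Ptprb encodes VE-PTP, the endothelial phosphatase that takes phosphate off TIE2. Its brightest probe set had 13.43, 13.44 and 13.44 at week 3, against 13.48, 13.54 and 13.52 in control. The other probe sets had 13.19, 13.15 and 13.09 against 13.47, 13.38 and 13.44, and 12.47, 12.51 and 12.36 against 12.73, 12.55 and 12.84. All 3 probe sets were lower on every week 3 array than on any control array, with log2 fold changes of -0.08, -0.29 and -0.26, and none passed the test (adjusted p = 0.700, 0.157 and 0.268).

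Among 18 other partners and downstream genes of TIE signalling, 2 fell and 0 rose at week 3 against control, with a median log2 fold change of -0.07 beside 0.03 for all genes. Those 2 were Svep1 (8.54 at week 3 and 9.60 in control, log2 fold change -1.06, adjusted p = 0.0419), an extracellular matrix protein that binds TIE1, and Grb14 (-0.75, adjusted p = 0.0328), an adaptor that binds phosphorylated TIE2. Against week 2, Grb14 fell by 0.84 on the log2 scale (adjusted p = 0.0451) and was the only 1 of the 18 to pass. Svep1 is also a matrix gene of mesenchymal cells, and the part of the lower fibroblast and pericyte markers in its values was not tested. None passed at week 1 or week 2 against control.

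Apln, the gene of the ligand apelin, was higher on all week 3 arrays than on all others. Its log2 signal was 10.80, 10.89 and 11.07 in control, 10.83, 10.94 and 11.08 at week 1, 11.19, 11.00 and 11.12 at week 2, and 11.59, 11.92 and 11.94 at week 3. The first 3 groups overlapped, and the gap between the highest of their arrays and the lowest at week 3 was wider than the SD of any of the 4 groups. The log2 fold change at week 3 was 0.89 against control (standard error 0.14, adjusted p = 0.0189), 0.71 against week 2 (standard error 0.13, adjusted p = 0.0478) and 0.87 against week 1 (standard error 0.14, adjusted p = 0.0570). The call against control held without week 3 replicate 1 (adjusted p = 0.0239) or control replicate 3 (0.0399) and was lost without week 3 replicate 2 (0.0617) or 3 (0.0655) and without control replicate 1 (0.0677) or 2 (0.0722). The call against week 2 was lost without any 1 array (0.0595 to 0.142).

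The receptor gene Aplnr moved less, and its probe sets stood on different sides of the threshold. The brightest had 12.50, 12.47 and 12.44 at week 3, against 12.12, 12.05 and 12.16 in control, which gave a fold change (log2) of 0.36 with an adjusted p of 0.0950. The other had 12.34, 12.19 and 12.33 at week 3, against 11.81, 11.66 and 11.82 in control, and rose by 0.52 (standard error 0.11, adjusted p = 0.0433). On both, every week 3 array exceeded every control array. At week 1 they differed, since the brightest had 12.33, 12.34 and 12.34, all above control (log2 fold change 0.23, adjusted p = 0.593), whereas the other had 11.78, 11.77 and 11.73, inside the control range (0.00078, adjusted p = 0.999). Apln minus Aplnr, relative to the control mean, was -0.20 ± 0.12 at week 1, 0.12 ± 0.10 at week 2 and 0.54 ± 0.22 at week 3 (log2, SD, n = 3), with a control SD of 0.12. Through the other Aplnr probe set, a comparison added after the data were seen, it was 0.37 ± 0.24 at week 3, and 1 of the 3 week 3 arrays, at 0.096, lay inside the control range, whose highest array was at 0.097. Whether ligand and receptor moved by different amounts was not tested.

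Of 13 genes of apelin processing and receptor signalling, 12 were measured and 1 passed at week 3 against control, with a list median of 0.03. This was Mme, which encodes neprilysin, a membrane peptidase that cleaves apelin. Mme averaged 8.10 at week 3 and 10.46 in control and fell by 2.36 on the log2 scale (adjusted p = 0.00454). Beside it, 5 of 12 markers of alveolar and airway epithelium fell and 0 rose, among them Ager (-1.81, adjusted p = 0.00387) and Rtkn2 (-1.36, adjusted p = 0.0221) and, named after their values were seen, Sftpa1, Aqp5 and Sftpc. The mean log2 signal of these 12 lay between 9.34 and 9.66 at week 3, against 10.07 to 10.34 in control, while Epcam had -0.37 (adjusted p = 0.114), and the fibroblast markers were lower as given above. The part of these cells in the Mme values was not tested. None of the 12 apelin genes passed against week 2, or at weeks 1 and 2 against control.

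**Figure D3:**
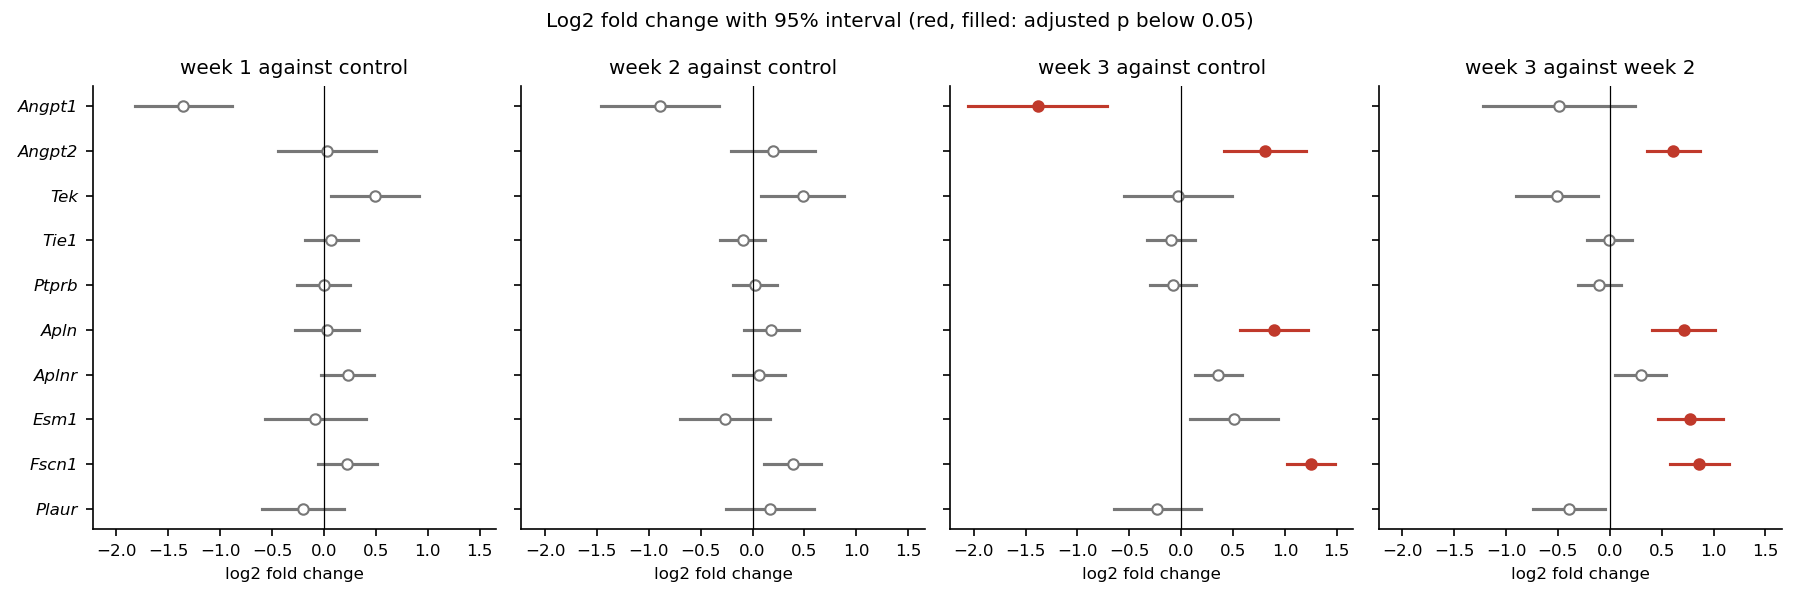
Log2 fold change (horizontal axis) of the 10 genes with its 95% interval in 4 comparisons, each of 3 arrays against 3, with filled red points for adjusted p below 0.05. Red points appear only at week 3, for Angpt1, Angpt2, Apln and Fscn1 against control and for Angpt2, Apln, Esm1 and Fscn1 against week 2.

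Fscn1 encodes fascin, which bundles actin in filopodia, and had the lowest adjusted p of the 10 genes at week 3. Its log2 signal was 11.25, 11.21 and 11.24 in control, 11.34, 11.62 and 11.40 at week 1, 11.43, 11.77 and 11.65 at week 2, and 12.53, 12.40 and 12.52 at week 3. Each week lay above all control arrays, week 1 and week 2 overlapped, and the lowest week 3 array exceeded the highest earlier array by more than the range within any group. The log2 fold change was 0.22 at week 1 (adjusted p = 0.649), 0.39 at week 2 (adjusted p = 0.309) and 1.25 at week 3 (standard error 0.10, adjusted p = 0.00211). Against week 2 it was 0.86 (standard error 0.12, adjusted p = 0.0255) and against week 1 1.03 (standard error 0.12, adjusted p = 0.0227). The other 3 probe sets of Fscn1 had week 3 log2 fold changes of 1.10, 1.69 and 1.24 against control (adjusted p = 0.00626, 0.00795 and 0.0511), with no overlap on any of them. The week 3 call against control held with any 1 array left out (adjusted p 0.00998 to 0.0157). The call against week 2 was lost without any 1 array (0.0602 to 0.0841), and that against week 1 held only without week 1 replicate 2 (0.0441).

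Fscn1 is also known from mature dendritic cells, so markers of blood cells are given beside it. The mean log2 signal of 7 leukocyte markers averaged 8.96 at week 3, inside the control range of 8.42 to 9.01 that every week 3 array also kept to, and above every array of week 1 (7.69 to 8.51) and week 2 (7.85 to 8.53). Against control 1 of the 7 rose, Fcer1g, an Fc receptor chain (0.60, adjusted p = 0.0291), and Fcer1g also rose against week 2 (0.91, adjusted p = 0.0175). All 7 had higher means at week 3 than at week 2 or week 1, with median log2 fold changes of 0.84 and 0.77. Ptprc, which encodes the CD45 of the sort, had 9.24 at week 3 and 8.84 in control (0.39, adjusted p = 0.503). Of 12 macrophage and dendritic cell markers, 2 rose, the complement genes C1qa (1.48, adjusted p = 0.0425) and C1qb (1.40, adjusted p = 0.0164), and 1 fell, Cd68 (-1.18, adjusted p = 0.0123). The mean of these 12 lay between 8.91 and 9.20 at week 3, against 8.72 to 8.92 in control, and between 8.35 and 8.95 at week 2. The mean of 5 neutrophil markers lay between 8.07 and 8.24 at week 3, against 7.37 to 7.75 in control, and above every array of week 1 (7.59 to 7.70) and week 2 (7.52 to 7.99). All 5 were higher at week 3 than in control, with a median log2 fold change of 0.44, and 0 passed by limma (2 at an unadjusted p below 0.05). The dendritic cell markers Flt3, Ccr7 and Itgax had log2 fold changes of -0.06, 0.07 and -0.09 at week 3 against control (adjusted p = 0.903, 0.799 and 0.836). Against week 1 they had -0.07, 0.23 and 0.50 by limma (adjusted p = 0.906, 0.557 and 0.392). At week 2 their means were 7.39, 6.95 and 7.32. Their week 3 means were 7.20, 7.33 and 7.86, below the median of all values, 8.13. At such dim probe sets the size of folds that can be seen is limited. Fcer1g, Cd68, Flt3, Ccr7 and Itgax are named after their values were seen, and the part of blood cells in the Fscn1 and Plaur values was not tested.

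**Figure D4:**
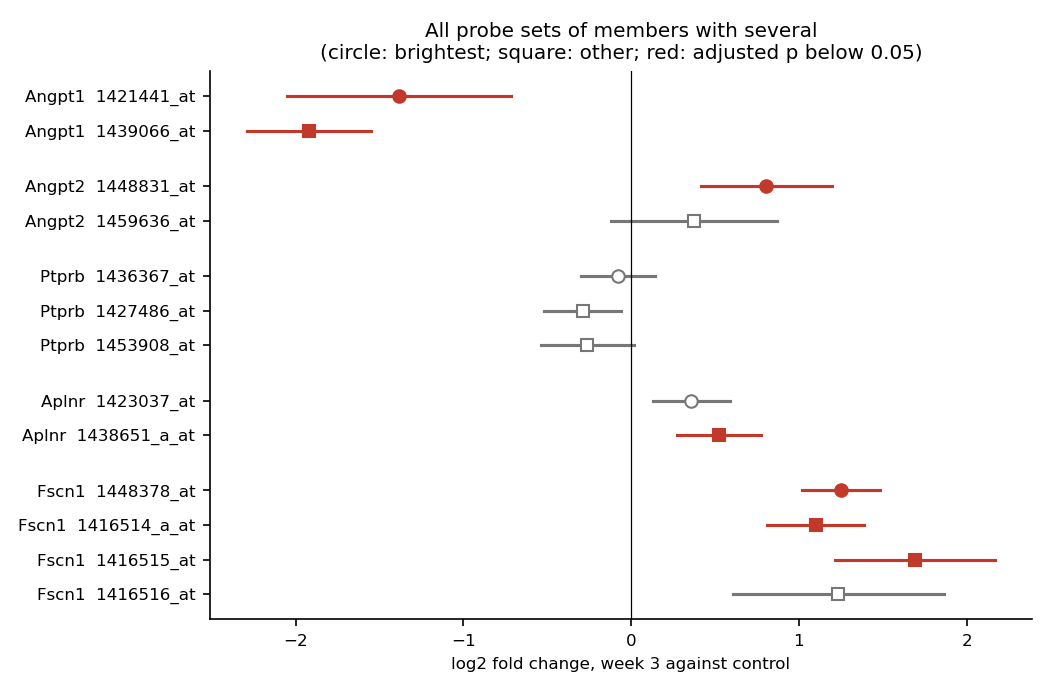
Log2 fold change at week 3 against control (horizontal axis) with its 95% interval (3 arrays against 3) for every probe set of the 5 members that have several, with circles for the brightest probe set, squares for the others and red for adjusted p below 0.05. Probe sets of 1 gene had the same sign in all 5 genes, and only those of Ptprb all missed the threshold.

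Esm1 encodes endocan, a proteoglycan secreted by tip cells. Its log2 signal was 10.53, 10.29 and 9.88 in control, 10.12, 9.88 and 10.45 at week 1, 10.08, 10.06 and 9.76 at week 2, and 10.75, 10.88 and 10.60 at week 3. The week 3 arrays lay above all others, while the other groups overlapped and week 2 had the lowest mean. Esm1 rose at week 3 against week 2 (log2 fold change 0.78, standard error 0.13, adjusted p = 0.0416), and did not pass against control (0.51, standard error 0.18, adjusted p = 0.169) or week 1 (0.59, standard error 0.17, adjusted p = 0.203). The control arrays spread with an SD of 0.33, against 0.14 at week 3, and the call against week 2 was lost without any 1 array (0.0829 to 0.107).

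Plaur encodes the urokinase receptor, which focuses plasmin formation on the surface of migrating cells. It had 11.32, 11.68 and 11.59 at week 3, against 11.85, 12.01 and 11.42 in control, values that overlapped (log2 fold change -0.23, 95% interval -0.65 to 0.19, adjusted p = 0.525). At week 2 it had 11.73, 12.12 and 11.94, above every week 3 array (week 3 against week 2 -0.40, adjusted p = 0.237). Plaur was the only 1 of the 5 tip cell and apelin genes whose week 3 mean was below control.

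Among 25 other genes reported for tip cells, 4 rose and 0 fell at week 3 against control, where 2.38% of all genes rose, and 20 of the 25 were higher, where 54.3% of all genes were. The median log2 fold change was 0.29 beside 0.03 for all genes. Trp53i11, a membrane protein gene first described as a p53 target, averaged 11.46 at week 3 and 9.07 in control (log2 fold change 2.39, adjusted p = 0.000768). Unc5b, a netrin receptor of sprouting vessels, averaged 11.28 at week 3 and 10.27 in control (1.01, adjusted p = 0.00846). The other two were Cxcr4, a chemokine receptor (0.69, adjusted p = 0.0281), and Cd34, a sialomucin of tip cell filopodia (0.60, adjusted p = 0.0248). Against week 2, 7 of the 25 rose and 0 fell, where 1.35% of all genes rose, with a median of 0.28, while the median gene moved by less than 0.01. They included Trp53i11 (1.74, adjusted p = 0.0107), Lamb1 (1.71, adjusted p = 0.0165), a laminin chain of basement membranes, and Nrp2 (0.92, adjusted p = 0.0252), a co-receptor for VEGF family members and semaphorins. By mean, 21 of the 25 were higher than at week 2 and 4 were lower. Those 4 were Pfkfb3 (log2 fold change -0.42), Ramp3 (-0.21), Nrp1 (-0.11) and Kdr (-0.06), and Dll4 had 0.05. At week 1 against control 1 of the 25 fell, Adm, the adrenomedullin gene (-1.34, adjusted p = 0.0394), and at week 2 none passed. Markers of other cells that rose at week 3 against week 2 were Col1a1 of fibroblasts (1.29, adjusted p = 0.0176), Acta2 of smooth muscle (1.08, adjusted p = 0.0193) and Fcer1g, and matrix genes such as Lamb1 are also expressed by such cells. The part of these cells in the tip cell list was not tested. Cxcr4, Cd34, Adm, Pfkfb3, Ramp3, Nrp1, Kdr and Dll4 are named after their values were seen.

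Genes of stalk cells, which trail the tip cell in a sprout, went the other way in counts. Of 10 such genes 3 fell and 0 rose at week 3 against control, where 2.63% of all genes fell, and all 10 had a lower mean, where 45.7% of all genes did, with a median of -0.25. Id2, an inhibitor of helix-loop-helix factors, averaged 9.03 at week 3 and 10.07 in control (log2 fold change -1.04, adjusted p = 0.00462), the Notch target Hes1 had -0.67 (adjusted p = 0.0291) and Smad6, an inhibitor of BMP signalling, -0.64 (adjusted p = 0.0374). Against week 2 Id2 fell by 0.66 (adjusted p = 0.0455), the only 1 of the 10 to pass, where 0.748% of all genes fell. All 10 were lower, where 50.1% of all genes were, and the median was -0.37. At weeks 1 and 2 against control none passed and the medians were 0.07 and 0.07. The part of other cell types, such as those of the lower fibroblast and pericyte markers, in the stalk cell list was not tested.

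The neighbours of Plaur and Fscn1 gave few calls. In the plasminogen activator system, 11 of 13 genes were measured and 1 rose at week 3 against control, Itgb3, the integrin chain that binds vitronectin (10.15 at week 3 and 9.05 in control, log2 fold change 1.10, adjusted p = 0.00948). Itgb3 also rose against week 2 (0.98, adjusted p = 0.0224) and against week 1 (1.42, adjusted p = 0.0199). Beside it, 4 of 8 markers of platelets, which carry this integrin, rose at week 3 against week 1 (Pf4, Ppbp, Itga2b and Tubb1, named after their values were seen), whereas 0 passed against week 2 or control, and their part in the Itgb3 values was not tested. Of 12 genes of actin bundling and filopodia other than Fscn1, 0 passed by limma at week 3 against control or week 2. The medians were 0.07 and 0.08. At an unadjusted p below 0.05, 4 passed against control (21.4% of all genes).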

How the data were processed

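RNA of sorted lung ECs from 12 mouse lung samples (4 groups of 3) was hybridised to 1 array each. The authors normalised the scans by robust multiarray averaging in Chipster and deposited log2 signals, 1 value per probe set and array, which were used unchanged. Whether a replicate was 1 mouse or a pool is not given in the sources used here, so p-values measure the spread between these samples. RMA gives no detection calls, and each array has the same distribution of signal, so a shift shared by most genes would not be seen. The number of arrays limits the precision.

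Of 45101 probe sets, 64 array controls were left out. Gene names came from the platform annotation of 2016, in which 34945 probe sets had 1 symbol, 932 had several and 9160 had none. A gene was read from its single-symbol probe set of highest mean, 18193 in all. Two-group fits used limma 3.58.1 in R 4.3.3, with Benjamini-Hochberg adjustment over 45037 probe sets. The fit was tested on simulated data. The members and lists were chosen with earlier results of these data known. Named were all members, at most 4 called genes of each pathway list by size of change at week 3, the sort antigens, at most 2 called markers of each list, and the 3 genes most like each called member. Alternatives were a fit of all groups, the replicate number as a block, quantile normalisation, centring on endothelial markers, a filter on dim probe sets, trended and robust variance, array weights, mean of a gene's probe sets, probe sets without shared-sequence suffixes, a looser cutoff, and each array left out. Another background correction was not run, since no scanner files were used here.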

Additional observations from a re-analysis of the deposited data

Results flagged for a closer look

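The changes from control of 4 genes differed between weeks by limma's test between those weeks, which uses no control array. At week 3 against week 2 the log2 difference was 0.86 for Fscn1, 0.78 for Esm1, 0.71 for Apln and 0.61 for Angpt2. For Fscn1 it was also 1.03 at week 3 against week 1. Groups of 3 arrays were not tested for outlying samples.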

How the results depend on the processing

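Directions of called values did not turn under any alternative run. Through the other probe set of Angpt1 or Aplnr, added after the data were seen, Angpt2 minus Angpt1 relative to control was 2.73 at week 3, and Apln minus Aplnr was 0.028 at week 1 and -0.016 at week 2, the signs opposite to those through the brightest probe set. The number of members passing at week 3 against control was 4 and lay between 3 and 5 under every setting that kept all arrays. Angpt2 was lost there with the replicate block (adjusted p = 0.0917), centred on endothelial markers (0.0583) and with the mean of a gene's probe sets (0.0709), and Aplnr was gained with all groups in one fit (0.0469), with trended variance (0.0111) and with the mean of probe sets (0.0250). At week 1 against control the count was 1 in place of 0, and that gene was Angpt1, with dim probe sets left out (adjusted p = 0.0336), trended and robust variance (0.0165), the mean of probe sets (0.0254) or the looser cutoff (log2 fold change over 0.75 in size, p below 0.05 and adjusted p below 0.25). At week 3 against week 2 the count was 0 with the replicate block, in place of 4. It was 2 with the looser cutoff, whose size limit of 0.75 left out Angpt2 (0.61) and Apln (0.71). It was 3 with the mean of probe sets and when the 4 groups were fitted together, where Angpt2 was lost (adjusted p = 0.136 and 0.0877), and centred on endothelial markers, where Apln was lost (0.0529). At week 3 against week 1 it was 3 with all groups in one fit, trended variance or the looser cutoff, 2 without dim probe sets, with array weights or with the mean of probe sets, and 0 with the replicate block, in place of 1. The labels do not say that a replicate number pairs arrays. Deviations of same-numbered arrays from their group means correlated at -0.10 to 0.06 over 18 pairs. Of the 18, 5 correlated best with their own number. With 3 arrays per group these values cannot tell whether same-numbered arrays shared a batch, which was not tested. With 1 array left out the count was 1 to 3 at week 3 against control, 0 at week 3 against week 2, 0 to 1 at week 3 against week 1 and 0 in the other comparisons. Over single members and comparisons, 317 of 360 values with 1 array left out and 571 of 600 under other settings kept their side of the threshold. Most of these values were not called in the main fit, so these shares say little about the calls. The other 43 values with 1 array left out were all lost calls. Only the Fscn1 call at week 3 against control held without any 1 array. Under other settings 13 calls were lost and 16 gained. Why these calls moved was not tested. The log2 signals of dim probe sets are compressed towards the array background, which limits the size of folds that can be seen there.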

Other observations

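The genes whose signal over the 12 arrays was most like that of each member that passed at week 3 against control were looked up among all 18193 genes, as a description without a test, since all points share the same 12 arrays and 4 groups. For Fscn1 they were Ildr2 (Pearson r 0.987, Spearman rho 0.916), Trp53i11 (0.977 and 0.944) and Syk (0.973 and 0.860). For Apln they were Ffar2 (0.989 and 0.965), Gins1 (0.955 and 0.713) and Car13 (0.954 and 0.839). For Angpt2 they were Efcab1 (0.943 and 0.825), Lin52 (0.939 and 0.811) and Emid1 (0.928 and 0.825). For Angpt1 they were Pla2r1 (0.963 and 0.979), C1qtnf7 (0.930 and 0.944) and Kcna2 (0.928 and 0.909). No gene stood among the 3 for more than 1 member. Among the members themselves, Apln and Fscn1 had r = 0.905, Angpt2 and Apln 0.849, and Angpt2 and Fscn1 0.846 over the same arrays.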
